A study of Cricetulus griseus with 3 samples.

Results

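The nuclear-encoded subunits of the mitochondrial respiratory chain were followed in poly-A RNA from microtubule preparations of CHO cells, an established Chinese hamster (Cricetulus griseus) ovary line. A fixed list of 59 human proteins was looked up in the column of the deposited table that pairs each hamster transcript with its best human protein match. Of these, 56 were found among 21607 transcripts, and where a protein had several transcripts the one with the most reads was kept. The remaining 3, NDUFA13 (Q9P0J0), UQCRQ (O14949) and COX6C (P09669), were not analysed here. Subunits are called by the human gene symbols of their UniProt entries. Only 3 of the 56 transcripts also had a symbol in the RefSeq gene table for hamster (Ndufa1, Ndufb11 and Sdhc), and all 3 were the gene named here.

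All 3 groups came from CHO cells first arrested with 2 mM thymidine for 16 h. Interphase microtubules were taken at that point. Mitotic microtubules came from cells given 5 h without thymidine and then 0.1 ug/ml nocodazole, a microtubule poison, for 4 to 5 h. These cells were detached by shaking and kept in fresh medium for 15 min. Midbodies, the microtubule bridges between separating daughter cells, followed the mitotic procedure with 65 min in fresh medium. Each group had 1 library, so the differences below rest on single libraries and carry no p-value. Thymidine release, nocodazole, shake-off and fresh medium separate the midbody and mitotic libraries from the interphase library and cannot be told apart from the stage. Total RNA of the cells was not part of the data. RNA bound to the structures, RNA of co-purified material and RNA abundant in the cells therefore cannot be told apart. All values are relative to the reads of their library, so they give neither cell numbers nor amounts of RNA per cell.

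The respiratory chain sits in the inner mitochondrial membrane. Complexes I and II take electrons from NADH and succinate and pass them to ubiquinone, complex III passes them on to cytochrome c, and complex IV hands them to oxygen. Complex V, the ATP synthase, uses the proton gradient built by complexes I, III and IV to make ATP. Most subunits have nuclear genes, are made in the cytosol and are imported, while a small hydrophobic core is made inside the mitochondrion. The 13 mitochondrially encoded subunits were not analysed here.

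The table assigned 12672056 reads to the interphase, 8059745 to the mitotic and 5134865 to the midbody library. Values are RPKM, reads normalised for the length of the transcript and the depth of the library, and ratios are log2 of (RPKM + 1). Intervals are exact 95% binomial (Clopper-Pearson) intervals on the ratio of reads per library total and cover counting error only. KIF23, the kinesin of the midbody, stood at 79.0 RPKM in the interphase, 109 in the mitotic and 274 in the midbody library. TOP2A, a topoisomerase of dividing cells, was at 195 RPKM in the mitotic library, against 121 in the interphase library. The mitotic regulators CCNB1 and PLK1 were at 62.8 and 90.3 RPKM in the mitotic library, against 108 and 128 in the interphase library, so of these 4 genes 2 were higher and 2 lower in the library labelled Mitosis.

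All 56 subunits reached 10 RPKM in every library. Their median level was 95.02 RPKM in interphase, 71.5 in mitotic and 85.4 in midbody microtubules. Together they took 0.519% of the interphase reads (interval 0.515 to 0.523), 0.361% of the mitotic reads (0.357 to 0.365) and 0.413% of the midbody reads (0.407 to 0.418). The group as a whole was thus highest in interphase and lowest in the mitotic library. By subunit, 36 had their highest level in interphase, 19 in midbodies and 1, NDUFAB1, in the mitotic library. The mitotic library held the lowest level of 39 subunits, the midbody library that of 13 and the interphase library that of 4. These orders were counted for the subunits only, so whether they differ from those of all transcripts was not tested. The order of levels within the group changed little between the closest libraries: Spearman's rho across the 56 subunits was 0.937 for the midbody and mitotic levels, against 0.789 for midbody with interphase and 0.791 for mitotic with interphase. These are descriptions across genes that share libraries and lengths.

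**Figure D1:**
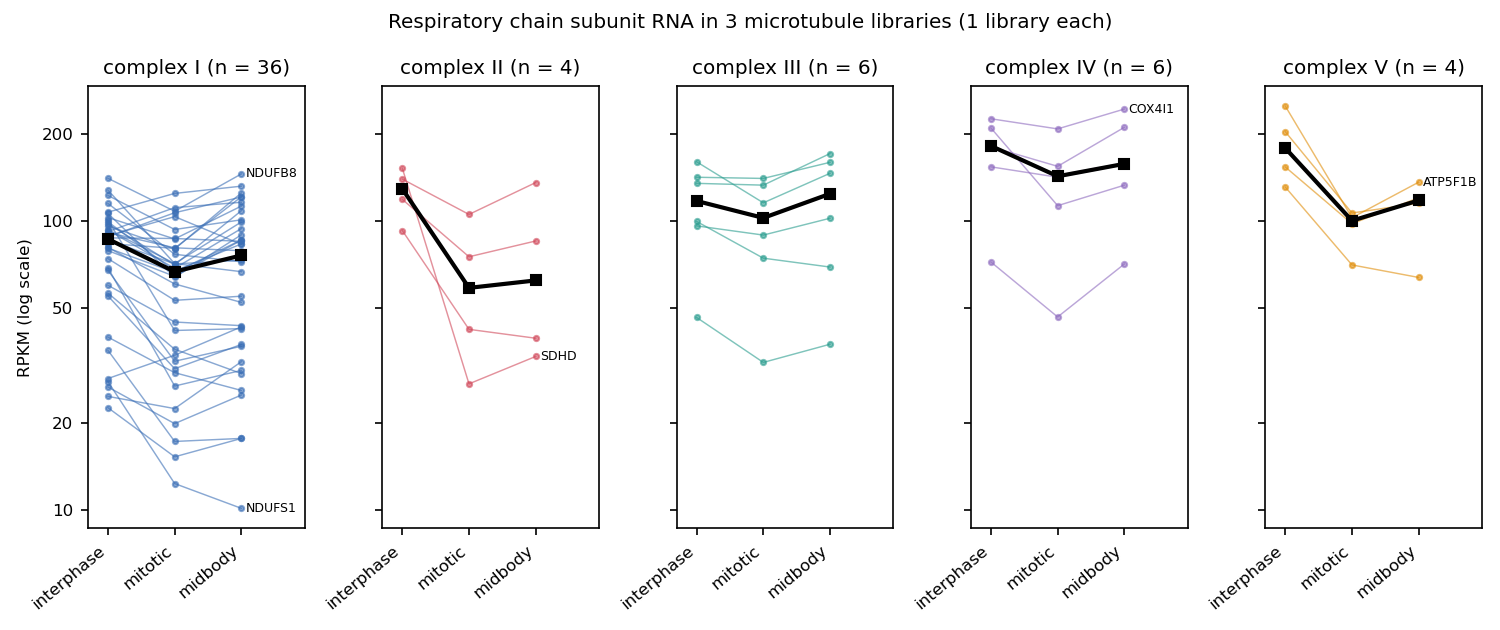
RPKM (log scale) of each subunit in the interphase, mitotic and midbody library, 1 panel per complex, with 1 coloured line per subunit and black squares for the median of the complex. Every median is lower for mitotic than for interphase microtubules, and the interphase to mitotic step is steepest for complexes II and V. SDHD lies furthest below its interphase level.

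The first comparison set mitotic against interphase microtubules. Respiratory chain RNAs were mostly lower in the mitotic library, with 51 of 56 subunits below and 5 above a log2 ratio of 0. Above 0 were 8.93% of the subunits and 45.3% of all transcripts compared. The median log2 ratio was -0.41, against -0.13 over all 13176 transcripts compared. Of the 56, 18 were at least 1.5-fold lower, where 33.8% of all transcripts were, and 0 were at least 1.5-fold higher, where 26.7% of all transcripts were. At 2-fold the subunits counted 8 lower and 0 higher, against 20.7% and 16.6% of all transcripts. The share that was lower by 1.5-fold (32.1%) was therefore close to that of the whole table, while the other direction held no subunit. Every subunit was at 10 RPKM or more, and over the 8306 transcripts with 10 RPKM in both libraries 31.1% were 1.5-fold lower and 20.3% 1.5-fold higher. Over the same 8306 transcripts the interval left out 1 for 49.6% on the lower and 35.4% on the higher side. By counting error alone, the interval left out 1 for 42 of 56 subunits on the lower side and 5 (8.93%) on the higher side, where 46.4% and 36.9% of all transcripts were. Those 5 were all of complex I: NDUFS5, NDUFA5, NDUFB2, NDUFAB1 and NDUFS3, with log2 ratios from 0.21 to 0.27.

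Midbodies were next set against interphase microtubules. Here the subunits were spread on both sides, with 37 below and 19 (33.9%) above a log2 ratio of 0, where 44.5% of all transcripts were above. The median log2 ratio was -0.24, against -0.15 over all 13059 transcripts compared. At least 1.5-fold lower were 15 of 56 subunits, or 26.8%, where 34.2% of all transcripts were, and 0 were at least 1.5-fold higher, where 25.1% of all were. NDUFB2, at a log2 ratio of 0.58, stood just under that line and crossed it with a pseudocount of 0.1 and with either other scaling; NDUFA9 also exceeded it under both scalings. At 2-fold, 6 subunits were lower and 0 higher, against 20.8% and 14.7% of all transcripts. The interval excluded 1 for 29 subunits that were lower (51.8%), near the 45.4% of all transcripts, and for 10 that were higher (17.9%), where 34.4% of all transcripts were. Over the 8229 transcripts with 10 RPKM in both libraries, 47.7% were lower and 34.7% higher by the interval. Of these, 30.6% passed 1.5-fold lower and 20.1% passed 1.5-fold higher.

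The third comparison, midbodies against mitotic microtubules, gave small ratios and mostly in the other direction. Of 56 subunits, 43 (76.8%) were above and 13 below a log2 ratio of 0, where 46.7% of all transcripts were above. The subunits had a median of 0.19, against -0.03 over all 13131 transcripts compared. The extremes were 0.64 for NDUFA1 and -0.32 for NDUFAB1. At least 1.5-fold higher were 4 subunits, or 7.14%, next to 7.11% of all transcripts, and 0 were at least 1.5-fold lower, next to 8.56%. No subunit passed 2-fold, where 2.09% of all transcripts were higher and 1.80% lower. The interval excluded 1 for 26 subunits that were higher, or 46.4% of them, and for 1 that was lower. Over all transcripts 21.3% were higher and 24.5% lower by the same reading. Over the 8553 transcripts with 10 RPKM in both libraries, 26.1% were higher and 27.2% lower by the interval. Of these, 4.75% passed 1.5-fold higher and 4.19% passed 1.5-fold lower.

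**Figure D2:**
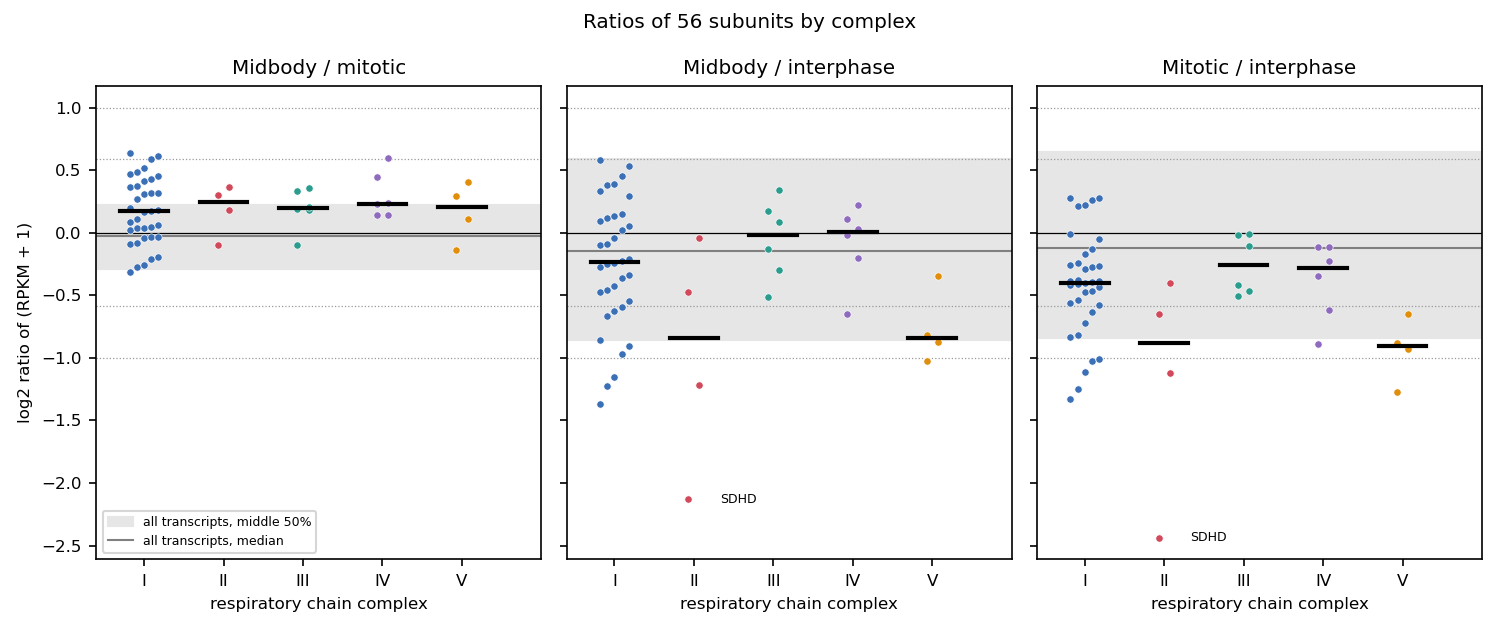
Log2 ratio of (RPKM + 1) for each of the 56 subunits, by complex, in the 3 comparisons. Black bars are the medians of the complexes, the grey band and line the middle 50% and the median of all compared transcripts, and dotted lines mark 1.5-fold and 2-fold. Over the subunits shown, complexes II and V lie lowest in both comparisons with interphase, at medians between -0.84 and -0.91. For midbodies over mitotic microtubules all 5 medians lie between 0.17 and 0.24.

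Complex I was measured through 36 subunits, 7 of them core subunits that carry the redox centres and 29 accessory ones. The core subunits had a median log2 ratio of -0.58 for mitotic over interphase, -0.55 for midbody over interphase and 0.05 for midbody over mitotic. NDUFS1 (P28331), the largest of them and a carrier of iron-sulfur clusters, stood at 27.9 RPKM in interphase, 12.4 in the mitotic and 10.2 in the midbody library, the lowest level of all 56 subunits in the last 2. It was lower in midbodies than in interphase microtubules by a factor of 2.74 (interval 2.25 to 3.37). A second transcript with the same human match showed the same order, at 24.97, 12.2 and 10.2 RPKM in interphase, mitotic and midbody libraries. Both carried whole reads, and whether reads were counted for both is not given in the sources used here.

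NDUFV1 (P49821), which binds NADH and its flavin, was at 115, 76.9 and 72.5 RPKM in interphase, mitotic and midbody libraries, and its iron-sulfur partner NDUFV2 was at 55.2, 30.9 and 37.5. NDUFS7, which holds the last cluster before ubiquinone, was at 74.3, 53.3 and 55.1 RPKM in the same order. The iron-sulfur subunit NDUFS8 was at 86.1, 71.3 and 73.3. These 4 subunits all had lower levels in the mitotic and midbody libraries than in interphase, with intervals that excluded 1. NDUFS3, a scaffold of the ubiquinone-binding module, was the exception among the core subunits: it stood at 108 RPKM in interphase, 125 in the mitotic and 132 in the midbody library. Its midbody level was 1.23-fold that of interphase (1.12 to 1.35).

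The 29 accessory subunits of complex I, which surround and stabilise the core, ranged more widely. Their median log2 ratio was -0.39 for mitotic over interphase, -0.10 for midbody over interphase and 0.20 for midbody over mitotic. The last median was 0.31 without NDUFV3 and NDUFB4, whose reads are fractional. The most abundant was NDUFB8, a subunit of the membrane arm, at 141 RPKM in interphase, 108 in the mitotic and 146 in the midbody library. The least abundant was NDUFV3, next to the NADH site, at 22.7, 15.3 and 17.7 RPKM in the same order. It rested on 29.5 to 93 reads, the fewest of the group, and its mitotic to interphase factor of 1.48 had an interval of 1.01 to 2.20. NDUFA10, a subunit with a nucleoside kinase fold, was the lowest accessory subunit in both comparisons with interphase: 101 RPKM in interphase, 41.9 in the mitotic and 42.5 in the midbody library. It lay below interphase by a factor of 2.41 (2.18 to 2.67) in the mitotic and 2.37 (2.11 to 2.68) in the midbody library.

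NDUFA8, a cysteine-rich subunit of the intermembrane space, had 35.8, 17.3 and 17.7 RPKM in interphase, mitotic and midbody libraries. NDUFB9 had 67.7, 32.8 and 36.97. Both passed 2-fold lower for mitotic over interphase. NDUFB6 of the membrane arm was at 56.5, 36.1 and 29.7 RPKM, NDUFA12 at 81.3, 60.8 and 52.4, and NDUFS4, needed for late assembly of the NADH-binding module, at 39.8, 29.9 and 26.0. These 3 had their lowest level in midbodies and were among the 6 lowest midbody to mitotic ratios, at -0.27, -0.21 and -0.20 on the log2 scale, although each of these intervals included 1. NDUFAB1, the mitochondrial acyl carrier protein that is also a complex I subunit, stood at 89.1 RPKM in interphase, 104 in the mitotic and 83.3 in the midbody library. It was the only subunit whose midbody level was below the mitotic level with an interval that excluded 1 (factor 1.25, interval 1.12 to 1.40).

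At the other end, NDUFA1 (O15239), a small membrane subunit needed for assembly, stood at 96.4, 80.2 and 125 RPKM in interphase, mitotic and midbody libraries. Its midbody level was 1.56-fold the mitotic level (1.31 to 1.86). NDUFA9, which lies close to the ubiquinone site, had 83.8, 80.7 and 122 RPKM and a midbody to mitotic fold of 1.51 (1.37 to 1.65). NDUFA3, of the membrane arm, had 98.0, 70.7 and 109 RPKM and a fold of 1.54 (1.16 to 2.04). The higher level in midbodies was shared by NDUFC1, at 24.8, 22.5 and 32.7 RPKM, and by NDUFS6, a zinc-binding subunit, at 107 in interphase, 64.1 in the mitotic and 89.9 in the midbody library. Of these 5, NDUFS6 alone had a lower midbody than interphase level.

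NDUFB2, NDUFA5 and NDUFS5 (with NDUFS3) formed the only set whose levels were lowest in interphase and highest in midbodies. NDUFB2 was at 28.6, 34.4 and 43.1 RPKM in interphase, mitotic and midbody libraries, and its midbody level was 1.51-fold that of interphase (1.27 to 1.79). NDUFS5, another cysteine-rich subunit of the intermembrane space, was at 88.4, 107 and 121 RPKM. NDUFA5 was at 92.2, 112 and 116. NDUFB4, at 87.7, 87.3 and 85.3 RPKM, hardly differed between the libraries, and its intervals included 1 in all 3 comparisons. The other 11 accessory subunits lay between 19.96 and 128 RPKM in all libraries, with mitotic to interphase log2 ratios from -0.84 for NDUFB11 to -0.17 for NDUFC2.

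Complex II, succinate dehydrogenase, is both a citric acid cycle enzyme and a respiratory chain entry point, and all its subunits are nuclear-encoded. Its share of reads was 0.0659% in interphase, 0.0380% in the mitotic and 0.0437% in the midbody library. Each of its 4 RNAs had its highest level in interphase, but the size of the difference varied widely. SDHD (O14521), a membrane anchor that helps bind ubiquinone, stood at 153 RPKM in interphase, 27.4 in the mitotic and 34.1 in the midbody library. This was the most marked difference of any subunit: the factor by which it lay below interphase was 5.57 (4.56 to 6.88) in the mitotic and 4.48 (3.58 to 5.67) in the midbody library. SDHC (Q99643), the other anchor, had 93.0, 42.3 and 39.4 RPKM in interphase, mitotic and midbody libraries, with a mitotic level lower by a factor of 2.20 (1.97 to 2.46). Its interphase count was fractional, so at least 1 read was divided with another transcript.

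The catalytic subunits of complex II were lower by less. SDHA, the flavoprotein that oxidises succinate, was at 119 RPKM in interphase, 75.4 in the mitotic and 85.5 in the midbody library. SDHB, the iron-sulfur subunit, was at 140, 106 and 136. The midbody level of SDHB did not differ from interphase beyond counting error (ratio 0.973, interval 0.886 to 1.07). Both membrane anchors were thus past 2-fold in both comparisons with interphase, and neither catalytic subunit was. Between midbody and mitotic libraries, SDHA and SDHB were higher in midbodies by 1.13-fold (1.06 to 1.22) and 1.29-fold (1.16 to 1.43), while the intervals of SDHC and SDHD included 1.

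Complex III is the cytochrome bc1 complex, and its share of reads was 0.0806% in interphase, 0.0690% in the mitotic and 0.0790% in the midbody library. UQCRC1 and UQCRC2 (P22695), its large matrix-facing core proteins, differed from each other. UQCRC1 was at 142 RPKM in interphase, 141 in the mitotic and 160 in the midbody library, and UQCRC2 was at 99.95, 74.6 and 69.5. CYC1, which carries the haem that reduces cytochrome c, had 135, 133 and 172 RPKM, and its midbody level exceeded the mitotic level 1.29-fold (1.18 to 1.40). The Rieske iron-sulfur protein UQCRFS1 was the least abundant of the complex at 46.5, 32.5 and 37.6 RPKM. UQCRB, a small ubiquinone-binding subunit, had 96.5, 89.7 and 103 RPKM, and the hinge protein UQCRH had 161, 116 and 147. No complex III subunit passed 1.5-fold in any comparison. A second transcript matching UQCRH held only 3, 16 and 6 reads in interphase, mitotic and midbody libraries, the reverse order of the main transcript.

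Complex IV, cytochrome c oxidase, had the highest median level of the 5 complexes in each library, at 182 RPKM in interphase, 143 in the mitotic and 158 in the midbody library. COX4I1 (P13073), a regulatory subunit that binds ATP, stood at 227 RPKM in interphase, 209 in the mitotic and 245 in the midbody library. COX6B1, which faces the intermembrane space, was at 181, 155 and 212, and COX5B, a zinc-binding subunit, at 184, 144 and 159. NDUFA4, first described with complex I and since assigned to complex IV, was at 154, 142 and 157. None of these 4 passed 1.5-fold in any comparison. COX5A behaved differently, at 210 RPKM in interphase, 113 in the mitotic and 133 in the midbody library, with a mitotic level lower by a factor of 1.86 (1.63 to 2.13).

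COX7C, the least abundant complex IV subunit, was at 72.3, 46.7 and 71.2 RPKM in interphase, mitotic and midbody libraries, and its midbody level was 1.52-fold the mitotic level (1.08 to 2.16). A second transcript with the same human match, fractional in its reads as well, stood at 51.2, 38.8 and 56.8 RPKM and had its lowest value in the same library. The median of complex IV for midbody over interphase was 0.00 on the log2 scale and that of complex III was -0.02. Complex III changed sign under both other scalings and complex IV when subunits with fractional reads were left out, so no direction is given for them.

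Complex V was represented by 4 subunits of its catalytic head and stalk, and all were below interphase in both other libraries with intervals that excluded 1. Together they took 0.112% of the interphase, 0.0554% of the mitotic and 0.0643% of the midbody reads. ATP5F1B (P06576), the beta subunit that forms ATP, had the highest interphase level of all 56 subunits: 251 RPKM, with 103 in the mitotic and 137 in the midbody library. Its mitotic level was lower by a factor of 2.43 (2.30 to 2.58). ATP5F1A, the alpha subunit, stood at 204, 107 and 116 RPKM in the same order. ATP5F1C, the rotating gamma subunit, was at 131, 70.7 and 64.0 RPKM. Of these 3, only ATP5F1C had a midbody level below the mitotic one, with an interval for that ratio of 0.796 to 1.03.

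ATP5PO, which ties the head to the outer stalk, was at 154 RPKM in interphase, 98.2 in the mitotic and 121 in the midbody library. It was lower in midbodies than in interphase by a factor of 1.28 (1.16 to 1.40), the smallest difference of the 4. Over these 4 subunits, complex V had a median log2 ratio of -0.91 for mitotic over interphase, -0.84 for midbody over interphase and 0.20 for midbody over mitotic. The same medians were -0.89, -0.85 and 0.24 for complex II. Without SDHC, whose reads are fractional, the complex II medians were -0.65 for mitotic and -0.47 for midbody over interphase. Further ATP synthase subunits, listed below among other genes, are not in the complex V medians. ATP5F1D, ATP5PB, ATP5PD, ATP5MC1 and ATP5MC3 ran from -0.74 to -0.53 for mitotic and -0.45 to -0.18 for midbody over interphase. In the same order ATP5MG was at -0.08 and 0.13, ATP5PF at 0.18 and 0.41 and ATP5MF at 0.33 and 0.36. The intervals of ATP5MG and ATP5MF included 1. Complexes III and IV had medians of -0.26 and -0.28 for mitotic over interphase. With 4 to 6 subunits per complex and 1 library per stage, these differences between complexes were not tested.

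Respiratory chain transcripts are short, and length moved with the ratios. The 56 transcripts had a median of 648 bases, from 186 to 2921, against 1617 bases over the 18792 transcripts with reads. For midbody over mitotic the ratio was lower for longer transcripts in the whole table, with a median of 0.13 up to 500 bases and -0.13 over 4000. Over the 5479 compared transcripts of up to 1500 bases the median was 0.05, next to 0.20 for the 47 subunits of that length. Within this range the median of all transcripts was 0.13 up to 500 bases and 0.12 from 500 to 750. It was 0.02 from 750 to 1000 and 0.02 from 1000 to 1500. In these 4 bins 61.5%, 59.5%, 51.5% and 52% were above 0, next to 78.7% of the 47 subunits. Over longer transcripts the median was -0.07, next to 0.17 for the 9 longer subunits. Spearman's rho between length and this ratio was -0.319 across the 56 subunits and -0.172 across all transcripts. For midbody over interphase, the 9 subunits over 1500 bases, all from complexes I, II, III and V, had a median of -0.66 and the 47 shorter ones -0.10, next to -0.13 and -0.17 over all transcripts of those lengths. For mitotic over interphase the medians were -0.82 and -0.39 for longer and shorter subunits, next to -0.04 and -0.25. The part of length in these results was not tested.

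**Figure D3:**
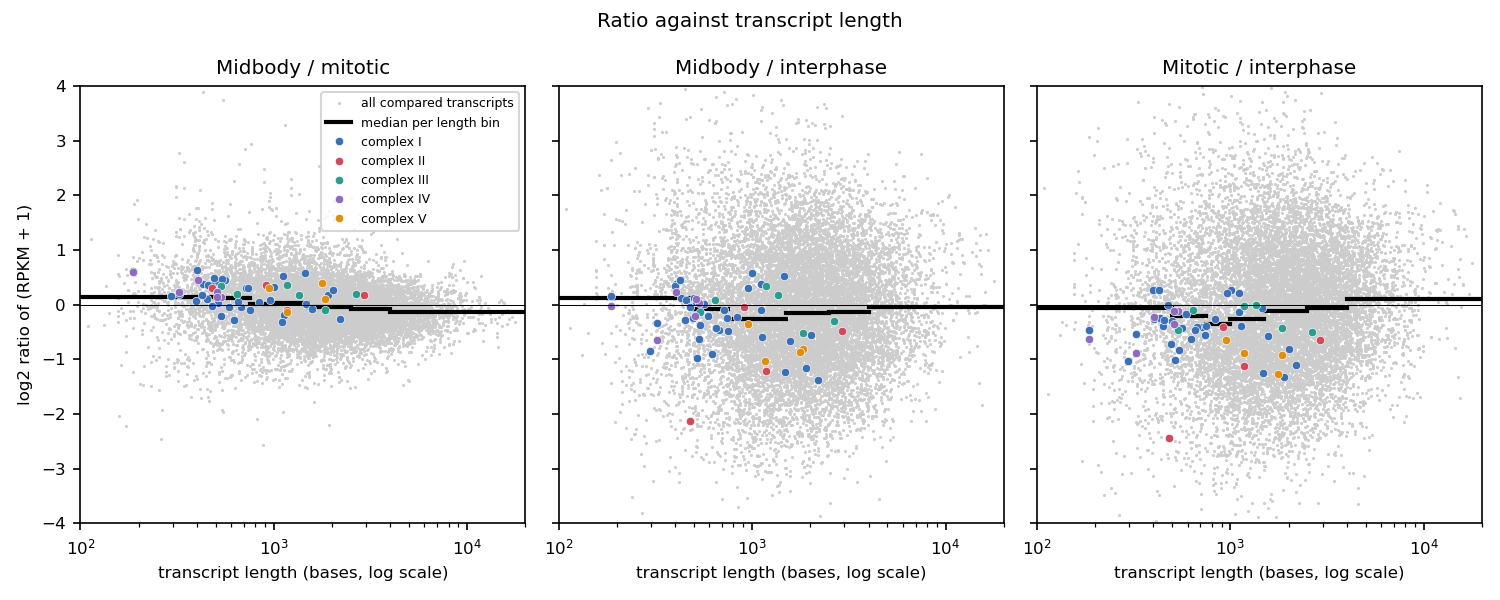
Log2 ratio of (RPKM + 1) against transcript length (bases, log scale) in the 3 comparisons. Grey points are all compared transcripts, with those beyond 4 on either side or longer than the axis not drawn, black bars their median per length bin, and coloured points the subunits by complex. In the midbody to mitotic panel most subunits, 43 of 56, lie above 0 and the black bars lie above 0 for the shortest transcripts and below 0 for the longest; in both panels over interphase SDHD lies lowest.

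Other genes of the pathway were read from lists of further subunits, assembly factors, citric acid cycle enzymes, import machinery and regulators of mitochondrial biogenesis. The 16 further subunits and partners that were found had median log2 ratios of -0.51 for mitotic over interphase, 0.12 for midbody over interphase and 0.26 for midbody over mitotic. In the last comparison 15 of 16 (93.8%) were above 0 and 3 (18.8%) at least 1.5-fold higher, next to 46.7% and 7.11% of all transcripts. All 16 were shorter than 1500 bases, and of all transcripts up to that length 54.8% were above 0. The share at least 1.5-fold higher also fell with length. It was 21.3% of all transcripts up to 500 bases, 13.8% from 500 to 750 and 8.39% from 1000 to 1500. The 18.8% of the 16 genes thus lay within the range of short transcripts. COX8A, a small complex IV subunit, was at 168 RPKM in interphase, 65.5 in the mitotic and 125 in the midbody library. UQCR10 of complex III had 127 RPKM in midbodies, against 78.1 in the mitotic library. ATP5IF1, the inhibitor of the ATP synthase, was at 164 RPKM in the midbody library, against 112 in interphase, and COX6A1 was at 211, against 156.04. The lowest values over interphase belonged to COX7A2L, a supercomplex factor, with 26.4 RPKM in midbodies, against 65.7 in interphase, and to ATP5MC1, of the membrane rotor, with 62.8, against 86.2. The low end of mitotic over interphase held COX8A at -1.35 and COX7A2L at -1.26, and the high end ATP5MF at 0.33 and COX7B at 0.28. COX7A2L and CYCS, cytochrome c, had the lowest midbody to mitotic ratios, -0.03 and 0.02.

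Over interphase, the assembly factors covered a wider range of ratios than the subunits they assemble. Among 29 of them, 7 passed 1.5-fold on the higher and 9 on the lower side for mitotic over interphase, or 24.1% and 31.0%, next to 26.7% and 33.8% of all transcripts. Their median log2 ratio was -0.17, and the ratios ran from -2.39 to 2.12, next to -2.44 to 0.27 for the subunits. FOXRED1, a complex I assembly factor, was at 144 RPKM in the mitotic library, against 32.3 in interphase, and BCS1L, which inserts the Rieske protein into complex III, at 50.3, against 16.1. COX15 and COX10, which make haem a for complex IV, were at 6.44 and 2.17 RPKM in the mitotic library, against 38.1 and 14.3 in interphase. The same 4 genes were the extremes of midbody over interphase, with log2 ratios of 1.74, 1.13, -2.51 and -2.13. Between midbody and mitotic libraries the assembly factors had a median of -0.11, with NDUFAF4 highest at 0.50, COX11 at 0.35 and NDUFAF1 and ATPAF1 lowest at -0.66 and -0.48.

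Citric acid cycle and pyruvate dehydrogenase genes were mostly lower than in interphase, 13 of 15 in each comparison. Above 0 were 13.3% of them, next to 45.3% of all transcripts for mitotic and 44.5% for midbody over interphase. At least 1.5-fold lower were 8 (53.3%) in each comparison, where 33.8% of all transcripts were for mitotic and 34.2% for midbody over interphase. The 15 genes had medians of -0.61 for mitotic and -0.59 for midbody over interphase. PDHA1, the catalytic pyruvate dehydrogenase subunit, was at 122 RPKM in interphase, 19.99 in the mitotic and 16.3 in the midbody library. SUCLG2, of succinyl-CoA synthetase, was at 60.8, 24.2 and 22.1. PDHB and IDH3B were the exceptions above 0, with 75.1 and 107 RPKM in midbodies, against 55.0 and 89.0 in interphase. The median for midbody over mitotic was -0.07, from -0.41 for IDH3B and -0.40 for DLD to 0.16 for SUCLA2.

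Of 8 import genes, 7 were lower in both libraries than in interphase, with medians of -0.47 for mitotic and -0.37 for midbody. The share above 0 was 12.5% of the 8 genes, next to 45.3% of all transcripts for mitotic and 44.5% for midbody over interphase. The receptor TOMM22 had 84.9 RPKM in interphase, 39.1 in the mitotic and 33.8 in the midbody library, and the receptor TOMM70 had 132, 60.9 and 82.0. TIMM23, the inner membrane channel, was at 102, 50.3 and 62.5. TIMM44, which links that channel to its import motor, was lowest in interphase, with 50.04, 76.6 and 70.2. For midbody over mitotic the import genes ran from -0.20 for TOMM22 and -0.18 for TOMM40 to 0.31 for TIMM23 and 0.42 for TOMM70. Over interphase TOMM40 and TIMM50 were the next highest after TIMM44, TOMM40 at -0.20 for mitotic and TIMM50 at -0.21 for midbody.

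Of 11 biogenesis regulators, 10 passed 1 RPKM, and their medians were 0.13 for mitotic over interphase, -0.07 for midbody over interphase and -0.27 for midbody over mitotic. PPARGC1B, a coactivator of mitochondrial genes, was at 10.3 RPKM in interphase, 22.5 in the mitotic and 19.5 in the midbody library, and the mitochondrial RNA polymerase POLRMT at 42.8, 67.4 and 52.5. LRPPRC, which stabilises mitochondrial mRNAs, was at 93.5, 52.7 and 40.2. NRF1, a transcription factor for respiratory chain genes, was at 30.6, 16.0 and 17.6. ESRRA, a nuclear receptor, and LRPPRC were lowest for midbody over mitotic at -0.47 and -0.38, and the mitochondrial transcription factors TFB2M and TFAM were highest at 0.36 and 0.24. Of these 10 regulators 3 (30%) were above 0 in that comparison, next to 43 of 56 subunits and 46.7% of all transcripts. All of them but TFAM were longer than 1500 bases, and of all transcripts over that length 40.9% were above 0. Over 4000 bases the share was 32%.

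**Figure D4:**
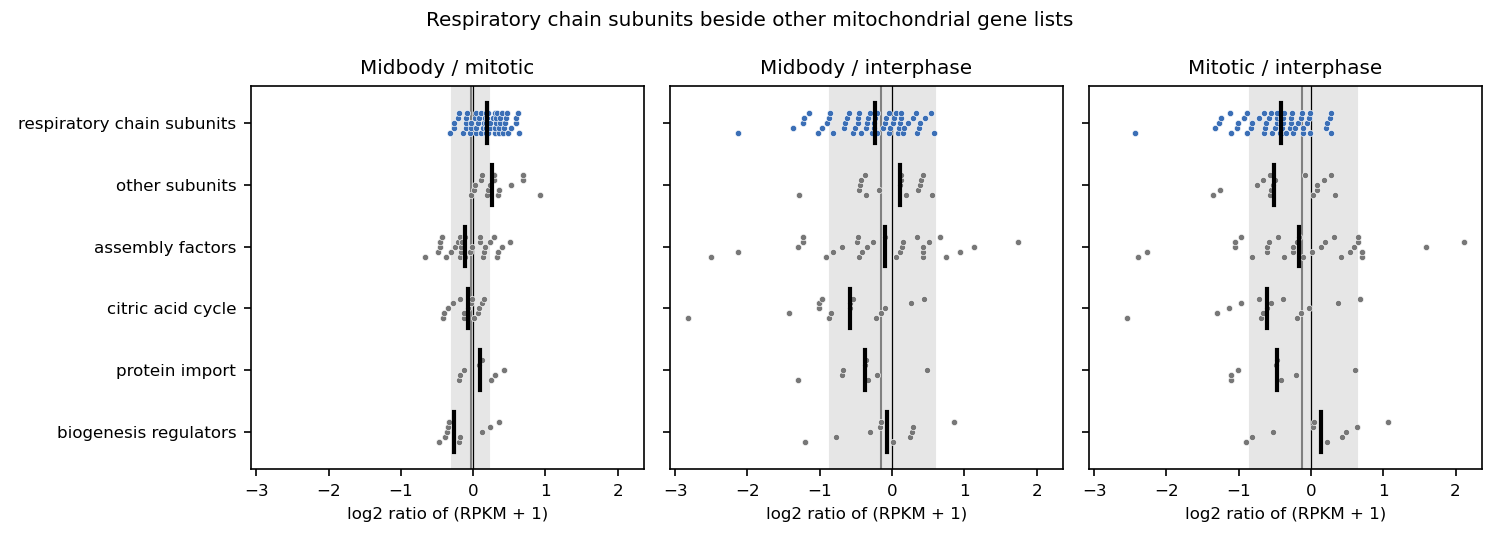
Log2 ratio of (RPKM + 1) for the respiratory chain subunits (blue) and 5 other mitochondrial gene lists (grey) in the 3 comparisons, with a black bar at the median of each list and the grey band and line for the middle 50% and median of all compared transcripts. For midbody over mitotic the subunits (median 0.19) and the further subunits (0.26) lie to the right of the assembly factors (-0.11) and regulators (-0.27).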

How the data were processed

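Poly-A RNA was sequenced from 3 CHO microtubule preparations, 1 library per group, with the Metaphase columns taken as the sample titled Mitosis. Estimated counts of reads per RefSeq transcript were deposited by the authors without normalization and are fractional in 15.1% of transcripts for interphase, 17.1% for mitotic and 16.0% for midbody. The deposited RPKM values are the authors' own and, with the reads, gave each transcript's length. Aligner, counting program, build and strand setting have no statement in the sources used here, so paralogs and overlapping genes may share reads.

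Ratios were log2(RPKM + 1), which understates low transcripts, over transcripts with 1 RPKM in either library. Thresholds were 1.5-fold and 2-fold. Intervals treat each read as a separate count and cover counting error only. Reads carried no molecular identifiers, so copies of the same molecule could not be told apart and the intervals may be too narrow. The midbody library is the shallowest. Named genes were the 6 highest and 6 lowest subunits per comparison at 10 RPKM and 50 reads, the complex I core, all subunits of the other complexes, the most and least abundant of each, and 2 at each end of every other list; a few more complete a group. Members and lists were chosen with earlier results of these data known. Scaling factors came from edgeR 4.0.16 on reads rounded to whole numbers, with python 3.11.15, pandas 2.3.3 and scipy 1.17.1 for the rest. The ratio procedure was run on simulated data with counting noise only. The planted changes were larger than both thresholds and in transcripts at 10 RPKM or more. The simulation therefore does not bear on smaller ratios or on the spread between libraries of a group. No sequences are shown, since none were at hand. A few named genes are not reported here.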

Additional observations from a re-analysis of the deposited data

How the results depend on the processing

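Each group had 1 library, so no library could be left out. No paired analysis was possible because every group held a single sample. Alternatives were pseudocounts of 0.1 and 5 RPKM, no floor and a floor of 10 RPKM, median of ratios and trimmed mean of M values scaling, CPM, all transcripts of a human protein summed, and subunits with whole reads only. Comparing with transcripts at 10 RPKM in both libraries was chosen after seeing the data. Of 330 recomputed summary values, 323 were read as unchanged. For medians this meant a shift below the median half-width of single-subunit intervals, which is not the counting error of the median itself. For counts it meant a change of at most 1.5 times. The sign changes of complexes III and IV and the complex I accessory median at 0.31 in place of 0.20 fell within this limit. The other 7 follow. With a pseudocount of 5, 2 subunits in place of 4 passed 1.5-fold higher for midbody over mitotic, and 5 in place of 8 passed 2-fold lower for mitotic over interphase. For midbody over interphase, subunits past 1.5-fold higher numbered 1 with a pseudocount of 0.1 and 2 under each other scaling, in place of 0. Without SDHC, whose reads are fractional, the complex II median was -0.47 for midbody and -0.65 for mitotic over interphase; the cause is that 3 subunits remain. Scaling moved log2 ratios by 0.011 to 0.060. All 1502 recomputed single-subunit ratios stayed within counting error, but some settings could not move them. All 56 subunits reached 10 RPKM, so neither floor could change a ratio, and the whole-reads setting only dropped subunits. Summing could change only subunits with a second transcript that held reads. The shallow midbody library limits the low transcripts most.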
